A study of Mus musculus with 10 samples.

Results

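The hemidesmosome genes described here are Col17a1, Dst, Itgb4, Itga6, Plec and Cd151, and the values are the p63 peaks inside them or within 50 kb of either end. In all, 37 of the 8451 peaks in the mouse keratinocyte list lay in the windows of these 6 genes (0.438% of the list), and no peak was shared by 2 of the genes. The genes were chosen by name, for their place in the hemidesmosome, with earlier results of the same list known. A peak counted if any of its bases overlapped the gene or the 50 kb on each side. The study sequenced p63-bound chromatin (ChIP-seq, chromatin immunoprecipitation followed by sequencing) from MK1 and MK2, described as a pair of similar mouse keratinocyte cell lines, with the 4A4 antibody to p63. There were 2 p63 libraries, 1 per line. The 2 input libraries and the 6 libraries of histone marks (H3K27ac, H3K4me1 and H3K4me3) were not analysed here. The labels give no genotype or treatment, nor how the lines were made, and a list of peaks holds no RNA against which the cell type could be checked.

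Hemidesmosomes are the junctions that fix basal keratinocytes to the basement membrane. Outside the cell, integrin alpha-6 beta-4 (encoded by Itga6 and Itgb4) binds laminin, together with the transmembrane collagen XVII (Col17a1) and the tetraspanin CD151 (Cd151). Inside, the plakins plectin (Plec) and BPAG1 (Dst) tie this complex to the keratin filaments. In humans, loss of several of these proteins causes blistering forms of epidermolysis bullosa, and collagen XVII and BPAG1 are the autoantigens of bullous pemphigoid. p63, a transcription factor of the p53 family, is needed for stratified epithelia and is most abundant in their basal layer, where hemidesmosomes form.

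The peaks come from 1 list made from both lines together, so there are no replicate values, no spread between MK1 and MK2 and no test. The list gives positions only, with no height or count, and read depth is unknown. A gap without a peak may therefore mean no binding or too few reads. All positions count from 1 on mm10, with genes from RefSeq's annotation of GRCm38.p6, whose chromosomes share those coordinates. That table gives no exons, so exon and intron could not be told apart. Nearness of a peak does not show that p63 regulates the gene.

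At 3 of these genes a p63 peak lay on a listed transcription start: Col17a1, Dst and Cd151. RefSeq start windows, which run from 250 bases before a start to 50 after it, were at hand for these 3. Each of the 3 genes had a window that overlapped a peak, and in each the start itself was inside the peak. Among all 17491 protein-coding genes with a listed start, 1.27% had such an overlap, and among those of them with a peak within 50 kb 3.15% did. The Col17a1 start at 47692042 on chromosome 19 lay in a 457 bp peak. For Dst, the start in a peak was an internal one at 34160260 on chromosome 1, 252.4 kb above the gene's lower end. The other listed Dst start, at 34011595, was 62327 bp from the nearest peak. Cd151 had a peak over its start at 141467362 on chromosome 7, and the other listed start, at 141468789, was 1245 bp from a peak. As background, Dst makes several isoforms from separate promoters, and the epithelial one, BPAG1e, starts inside the gene. The table used here does not say which isoform begins at 34160260.

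Sequence was at hand only for start windows, not for the other peaks of the hemidesmosome genes. The 250 bases before each of these 3 starts are shown, and they lie, in part or in full, under a p63 peak. They are from RefSeq, build GRCm38.p6, read 5′ to 3′ on the gene's own strand, and end at the base before the start. Capitals mark each place where CNNG is followed, after 6 bases of any kind, by CNNG, the loosest form of the paired p53-family site. Matches were sought on both strands, and they may overlap one another. The Col17a1 stretch is the minus strand of chr19:47692043-47692292, of which 139 bases were inside the peak. The Dst stretch is the plus strand of chr1:34160010-34160259 and the Cd151 stretch the plus strand of chr7:141467112-141467361, each inside its peak over all 250 bases.
Col17a1: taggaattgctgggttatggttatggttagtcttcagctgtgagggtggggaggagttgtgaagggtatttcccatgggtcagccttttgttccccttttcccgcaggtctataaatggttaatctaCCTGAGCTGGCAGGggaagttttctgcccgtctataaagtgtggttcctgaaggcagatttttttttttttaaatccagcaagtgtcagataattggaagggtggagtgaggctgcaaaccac
Dst: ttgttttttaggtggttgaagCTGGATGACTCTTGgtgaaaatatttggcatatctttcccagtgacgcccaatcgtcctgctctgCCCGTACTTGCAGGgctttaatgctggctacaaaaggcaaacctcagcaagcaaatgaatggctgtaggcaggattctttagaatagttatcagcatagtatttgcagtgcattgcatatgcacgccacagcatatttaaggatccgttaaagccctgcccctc
Cd151: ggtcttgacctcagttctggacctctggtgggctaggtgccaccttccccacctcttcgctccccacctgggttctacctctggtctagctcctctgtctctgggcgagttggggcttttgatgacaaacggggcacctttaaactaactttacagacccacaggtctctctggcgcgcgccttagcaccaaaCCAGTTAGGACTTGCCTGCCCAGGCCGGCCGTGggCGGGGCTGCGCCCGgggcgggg

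The loose pattern was common in start windows. Over the whole 300-base windows, Col17a1 held 1 match, Dst 2 and Cd151 7, of which 5 stood before the start, and 70.2% of all 32851 start windows held at least 1. Stricter pairs, CATG followed after 6 bases by CATG and CAAG followed after 6 bases by CTTG, were in none of the 3 windows. They occurred in 0.712% and 0.563% of all windows. The p53-family consensus decamer matched once in the Col17a1 window, as GGACTTGTTT at bases 16 to 25 after the start, and once in the Cd151 window, as GGACTTGCCT at bases -50 to -41. Both matches lay inside the peaks, and 8.36% of all windows held a match. No match to the decamer was in the Dst window. A further 4-letter core, CATG, was present in 61.1% of windows. The Dst window held it at bases 39 to 42 after the start, inside the peak, and the Col17a1 window at bases -177 to -174, outside the peak. G and C made up 46.0% of the 250 bases before the start in Col17a1, 45.2% in Dst and 62.4% in Cd151, against a median of 52.4% over all listed starts (quartiles 45.2% and 61.2%). A match in letters is not a measured binding site.

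Every one of the 6 genes had p63 peaks, and each had at least 3. In the same kind of window, 40.8% of 21775 protein-coding genes had a peak (8876 genes) and 9.73% had 3 or more. Long genes have wider windows, and 5 of the 6 are longer than 33 kb. Among protein-coding genes of at least that length, 14.1% had 3 or more peaks. The minimum of 3 and the length of 33 kb were set after these peaks were seen. That all 6 genes reach the minimum was thus fixed in advance, and nothing is read from it. All 6 genes had a peak that overlapped the gene body, as did 13.8% of protein-coding genes and 28.2% of those of 33 kb or longer. The median count was 5.5 peaks per hemidesmosome gene, against 0 over all protein-coding genes. The genes were chosen with this list known, and no median was taken over genes of like length. Nothing is therefore read from this difference. Counts ran from 11 at Col17a1 through 9 at Dst, 6 at Itga6 and 5 at Itgb4 to 3 each at Plec and Cd151. With no replicate list, neighbours in this order cannot be told apart by any spread.

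**Figure D1:**
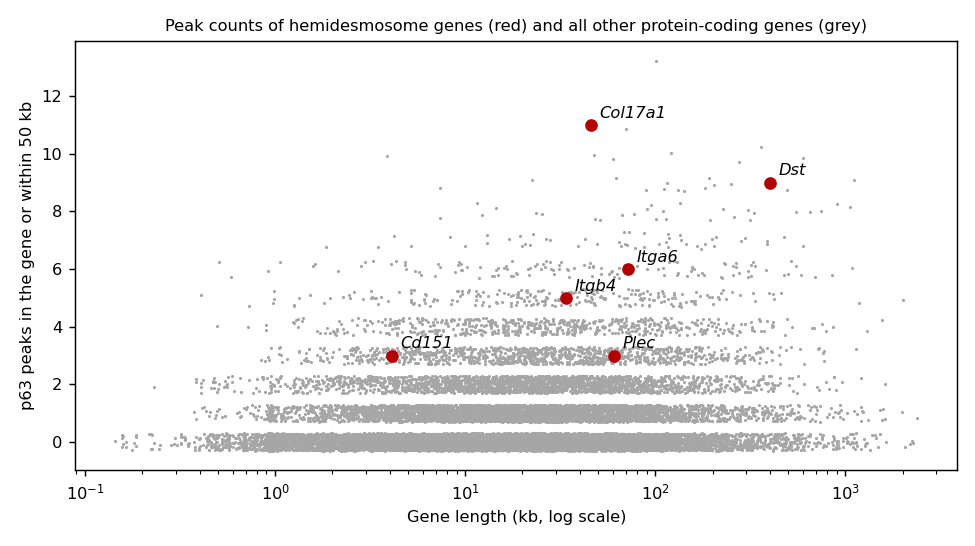
Number of p63 peaks in each protein-coding gene or within 50 kb of it (vertical axis; grey points are spread by up to 0.3 so that they can be seen) against gene length in kb on a log axis. The 6 hemidesmosome genes are red, with Col17a1 at 11 peaks for 45.7 kb and Dst at 9 for 400.8 kb, while Cd151 and Plec have 3 each.

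Scaled to the width of the window, the order changed. Col17a1 had 7.55 peaks per 100 kb, and 0.0138% of protein-coding genes, 3 genes with Col17a1 itself, were at least as dense. Between Col17a1 and its neighbour Sfr1, 8 of its peaks spanned 32.9 kb, the last centred 0.71 kb from Sfr1. These 8 peaks therefore lie in the 50 kb window of Sfr1 too, as do the peak at the Col17a1 start and the one 3.3 kb downstream of it. The density is thus not particular to Col17a1. Itgb4 followed with 3.74 peaks per 100 kb (1.68% of genes at least as dense), Itga6 with 3.50 (2.19%) and Cd151 with 2.88 (3.60%). Plec had 1.87 (9.78%) and Dst 1.80 (11.0%). Dst thus stood out less by density than by number, and 1.61% of protein-coding genes are as long or longer. Among genes with the same number of peaks, the only other one with 11 was Nectin1 (70.4 kb, 6.46 peaks per 100 kb), which encodes a cell adhesion receptor. Of the 16 others with 9, those nearest to Dst in length were Maml2 (413.0 kb), Sorcs2 (381.0 kb) and Ank3 (494.0 kb). All 9 of the peaks counted for Maml2 and Sorcs2 were in the gene body, as in Dst, and 8 of the 9 for Ank3. Likeness here means equal counts in 1 list, not a shared pattern across samples.

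**Figure D2:**
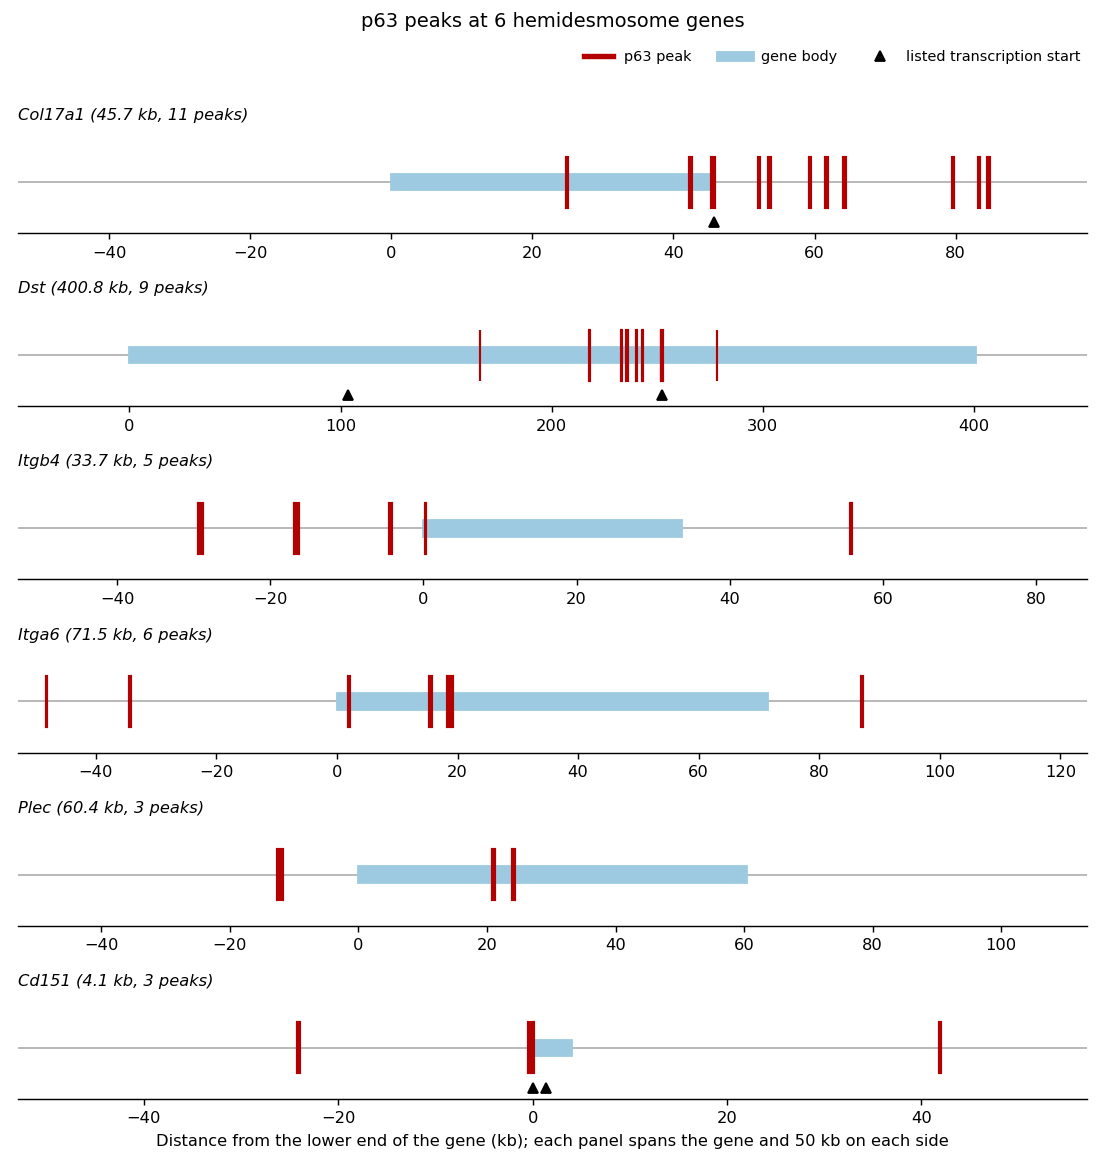
Position of each p63 peak (red bars, drawn to scale but never thinner than 1 line) along the 6 gene windows, in kb above or below the gene's lower end (blue marks the gene body). Each panel has its own scale, and triangles mark the transcription starts listed for Col17a1, Dst and Cd151. Of the 11 Col17a1 peaks, 8 lie upstream of its start, 1 lies on it and 2 lie downstream, inside the gene. The Dst peaks lie in the middle of the gene.

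Col17a1, which encodes the transmembrane collagen XVII, had the densest group. The gene spans 47646341 to 47692042 on chromosome 19 and is read from the upper end down, so peaks above it are upstream. Inside the gene there were 3 peaks. One at 47671067 to 47671327 (261 bp) lay 20.84 kb downstream of the start, and another at 47688574 to 47688914 (341 bp) lay 3.30 kb downstream. The third was the peak at the start, 47691725 to 47692181 (457 bp, the widest of the 11). No peak lay within 50 kb below the gene, the side of its 3′ end.

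The other 8 Col17a1 peaks were all upstream, in the stretch between Col17a1 and its neighbour Sfr1, and fell into 2 runs. The nearer run held 5 peaks over 12.5 kb with gaps of 1.10 to 5.40 kb. Its first pair lay at 47698264 to 47698660 (397 bp) and 47699761 to 47700102 (342 bp), with midpoints 6.42 and 7.89 kb upstream of the start. After a gap of 5.40 kb came 47705501 to 47705885 (385 bp), 47707878 to 47708303 (426 bp) and 47710404 to 47710759 (356 bp), at 13.65, 16.05 and 18.54 kb upstream. These 5 peaks were alike in width, at 342 to 426 bp. Then 15.12 kb passed without a peak. The farther run held 3 peaks over 5.3 kb, at 47725881 to 47726082 (202 bp), 47729588 to 47729868 (281 bp) and 47730831 to 47731181 (351 bp).

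Those last 3 peaks, 33.94 to 38.96 kb upstream of Col17a1, were nearer to Sfr1, which encodes a recombination factor. Their midpoints were 5.73, 1.99 and 0.71 kb from Sfr1. Col17a1 was the nearest protein-coding gene of the other 8. The whole group of 11 spanned 60.1 kb, with a median gap of 3.16 kb, and 10 of the 11 peaks had another within 10 kb. The exception was the peak deepest in the gene, 17.25 kb from the next.

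Dst, which encodes the plakin BPAG1, is read upwards over 33907888 to 34308662 on chromosome 1. All 9 of its peaks were inside the gene, and none lay in the 50 kb beyond either end. They were gathered in its middle: the first 166.0 kb and the last 122.3 kb of the gene held no peak, and the peaks together spanned 112.4 kb, or 28.1% of the gene's length. The first peak, at 34073922 to 34074176 (255 bp), stood alone, 51.42 kb from the next. The second, at 34125598 to 34125910 (313 bp), overlapped the long noncoding RNA gene Gm51742 as well as Dst.

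A run of 6 Dst peaks followed in 19.6 kb, or 4.89% of the gene, ending over the internal start at 34160260. It began with 34140840 to 34141270 (431 bp) and 34143108 to 34143828 (721 bp, the widest in Dst), at 19.20 and 16.79 kb upstream of that start. Next came 34148003 to 34148291 (289 bp) and 34150661 to 34151109 (449 bp), at 12.11 and 9.38 kb upstream. The run closed with 34159523 to 34159750 (228 bp) and 34159897 to 34160416 (520 bp), which were 146 bp apart, the smallest gap at any of the 6 genes. The narrower of this pair was centred 0.62 kb upstream of the start, and the wider one covered it. The ninth peak, at 34186088 to 34186358 (271 bp), lay 25.96 kb downstream.

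Relative to the start inside a peak, 8 of 11 peaks at Col17a1 and 7 of 9 at Dst were thus centred over 0.5 kb upstream. Cd151, with 3 peaks, had 1 at the start and 1 far out on each side. The Dst start used here was taken because it lies inside a peak. All 9 Dst peaks lie downstream of the other listed Dst start, at 34011595.

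**Figure D3:**
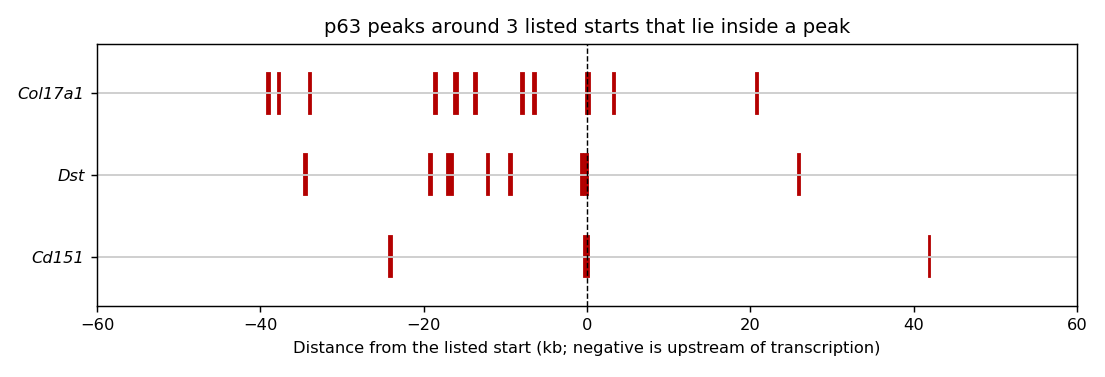
p63 peaks (red bars) at Col17a1, Dst and Cd151, in kb from the listed start that lies inside a peak, with negative values upstream of transcription. Peaks beyond 60 kb, which is 1 peak of Dst, are not drawn, and the pair 146 bp apart at the Dst start merges into 1 bar at this scale. Col17a1 has upstream peaks out to 38.96 kb and Dst has a run within 19.20 kb.

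The alpha-6 beta-4 integrin is the laminin receptor of the hemidesmosome, and both of its genes had peaks near the lower end of the gene. Itgb4, which encodes the beta-4 subunit with its long cytoplasmic tail, spans 115974725 to 116008412 on chromosome 11. Of its 5 peaks, 1 was inside the gene at 115974871 to 115975120 (250 bp), beginning 146 bp above the lower end. Below the gene lay 115970231 to 115970628 (398 bp), 4.10 kb away. The next ones down, at 115957838 to 115958413 (576 bp) and 115945285 to 115945905 (621 bp), were 16.31 and 28.82 kb away and inside the neighbouring gene Sap30bp. These last ones were the widest of the 5. The fifth, at 116030460 to 116030715 (256 bp), lay 22.05 kb above the gene and inside Unk. Between it and the peak in Itgb4, 55.34 kb held none. Itgb4 was the nearest protein-coding gene of 2 of the 5.

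Itga6, which encodes the alpha-6 subunit, spans 71786886 to 71858427 on chromosome 2 and had 6 peaks, 3 of them inside. The inner ones were in the lower part of the gene, at 71788755 to 71789090 (336 bp), 71802161 to 71802571 (411 bp) and 71805077 to 71806085 (1009 bp). Their midpoints were 2.04, 15.48 and 18.70 kb above the lower end. The 1009 bp peak was the widest at any hemidesmosome gene, and 27 of the 8451 peaks (0.319%) were as wide or wider. From there, 67.71 kb without a peak ran through the rest of the gene. It was the longest gap between neighbouring peaks at any of the 6 genes. Above the gene, the peak at 71873799 to 71874088 (290 bp) was 15.37 kb away and inside Pdk1. Below it, peaks at 71752410 to 71752689 (280 bp) and 71738648 to 71738833 (186 bp) were 34.20 and 48.05 kb away, and Itga6 was the nearest protein-coding gene to them. The last of these also overlapped the long noncoding RNA gene Gm17250.

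Plec encodes plectin, which links the beta-4 tail to keratin filaments, and spans 76170974 to 76231378 on chromosome 15. It had 3 peaks and was the nearest gene of all 3. A pair 2.65 kb apart lay inside, at 76191817 to 76192263 (447 bp) and 76194910 to 76195324 (415 bp), with midpoints 21.07 and 24.14 kb above the lower end. The third, at 76158384 to 76159296, lay 11.68 kb below the gene. It was 913 bp wide, and 40 peaks of the list (0.473%) were at least that wide. No Plec peak was narrower than 415 bp.

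Cd151 encodes a tetraspanin that binds the alpha-6 integrin subunit, and it is the shortest of the 6 genes, at 4.1 kb (141467362 to 141471481 on chromosome 7). The peak over its start, at 141466936 to 141467544, was 609 bp wide and also overlapped the long noncoding RNA gene Gm10575. The other peaks stood alone, 23.46 and 41.66 kb from it. One was at 141443105 to 141443473 (369 bp) inside Pidd1, a gene of the p53 response, and the other at 141509205 to 141509393 (189 bp) inside Chid1. Cd151 was the nearest gene of the peak at its start only.

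Over the 6 genes, 19 of the 37 peaks lay inside or across an end of the gene, 11 lay outside but within 25 kb, and 7 lay between 25 and 50 kb. The hemidesmosome gene was the nearest protein-coding gene of 28 peaks. The remaining 9 were nearest to Sfr1 (3), Sap30bp (2), Unk, Pdk1, Pidd1 and Chid1 (1 each), and 6 of them lay inside those genes. The midpoint fell inside some protein-coding gene for 24 of the 37 peaks (64.9%), against 53.2% of the other 8414. The 37 were taken from in and around protein-coding genes, which itself favours a higher share, so nothing is read from this difference. At the 50 kb limit, the outermost peak counted was the Itga6 peak at 48.05 kb. The nearest ones not counted were at 53.36 and 56.64 kb from Plec, both inside Eppk1, and at 56.57 and 58.08 kb from Cd151.

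Median peak width at hemidesmosome genes was 356 bp (quartiles 280 and 447 bp, range 186 to 1009 bp), against 304 bp for the other 8414 peaks (quartiles 242 and 392 bp). The 95% interval of that median, from the binomial order of the widths, was 290 to 415 bp and held the 304 bp. It takes the 37 peaks as independent, although peaks of 1 gene share a locus. Of the 37, 24 were at or above the median of the whole list and 16 were at or above its upper quartile. Medians by gene were 351 bp at Col17a1, 313 bp at Dst and at Itga6, 398 bp at Itgb4, 447 bp at Plec and 369 bp at Cd151. Widths at Col17a1 were the most even, at 202 to 457 bp, while Itga6 ranged from 186 to 1009 bp.

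**Figure D4:**
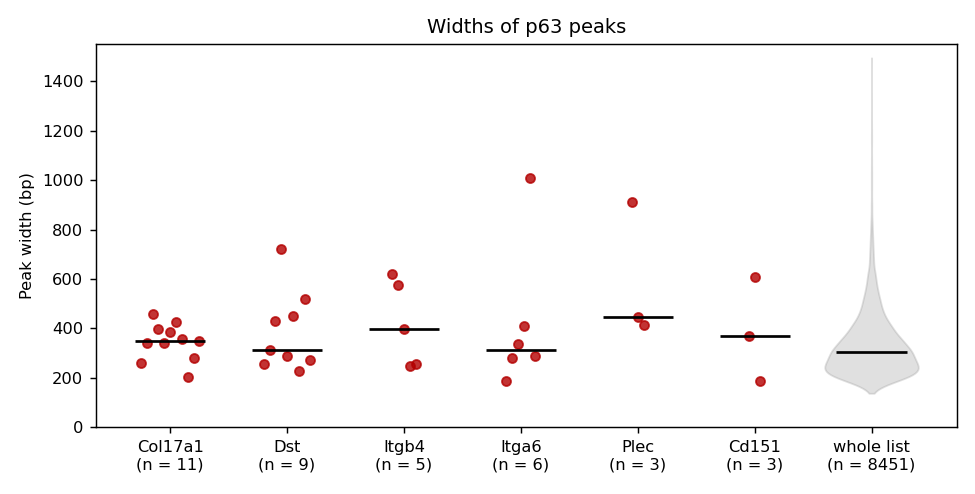
Width in bp of every p63 peak at each hemidesmosome gene (points, in order of position) beside the distribution over the whole list of 8451 peaks (grey), with medians as black lines. The widest peaks are at Itga6 (1009 bp), Plec (913 bp) and Dst (721 bp), and no Col17a1 peak exceeds 457 bp.

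Spacing differed from gene to gene. Of the 37 peaks, 22 (59.5%) had another peak within 10 kb, edge to edge, against 29.7% of the other 8414 peaks. Of these 22, 10 were at Col17a1, 6 at Dst and 2 each at Itgb4, Itga6 and Plec. At Cd151 no peak had a neighbour within 10 kb. Without the Col17a1 and Dst peaks the count was thus 6 of 17. Peaks within 1 kb of another numbered 4 (10.8%), namely the pair at the Dst start and the pair nearest to Sfr1, against 6.79% of the rest of the list. The genes were chosen with this list known, and windows rich in peaks favour close neighbours. Nothing is therefore read from either difference. Within the windows, the 31 gaps between neighbouring peaks had a median of 8.41 kb. The list as a whole had a median gap of 75.1 kb, but its gaps are not bounded by a window, so these medians are not comparable.

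**Figure D5:**
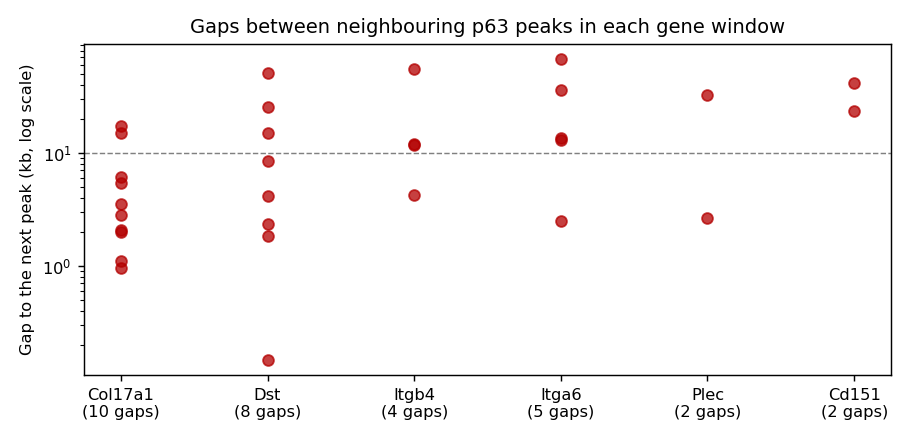
Gap in kb (log axis) between each p63 peak and the next one up the chromosome within the same gene window, edge to edge, with a dashed line at 10 kb. Of the 10 gaps at Col17a1, 8 lie under the line and none exceeds 17.25 kb. The smallest gap is 0.15 kb at Dst, and both gaps at Cd151 are over 23 kb.

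Other genes of the anchoring system were read in the same windows. Of 9 partners, namely genes of laminin chains, collagen VII, basal keratins and focal adhesions, all 9 had a peak and 5 had 3 or more, with a median of 4 peaks. Lama3, which encodes the alpha chain of the hemidesmosome's ligand laminin-332, had 9, of which 7 overlapped the gene. Lamb3, which encodes a beta chain of laminin, had 2. Itga3, which encodes the alpha-3 integrin subunit, Itgb1, its beta-1 partner, and Krt5, the basal keratin at the other end of the linkage, had 4 each, as did Lama5, which encodes a laminin alpha chain. Col7a1, the gene of the anchoring fibril collagen, had 2, and other genes were nearer to both. The lists were chosen with these peaks known, and 40.8% of protein-coding genes had a peak.

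Counts were also taken by family, over the relatives of the hemidesmosome genes. All 5 other plakin genes had a peak, with 5 at Eppk1, 4 at Dsp, which encodes desmoplakin, and 3 each at Macf1 and Ppl. Eppk1 lies next to Plec, and its window takes in the 913 bp peak counted for Plec. It was the nearest protein-coding gene of 2 of its 5 peaks. Evpl had 2 peaks, the closer one 16.5 kb away, and was the nearest gene of neither. Of the 24 other integrin subunit genes, 14 (58.3%) had a peak and 6 had 3 or more, led by Itgb6 with 5 and by Itga3, Itgb1 and Itgb5 with 4. Peaks overlapped the gene itself at 6 of the 24. Of 6 other tetraspanin genes, 2 (33.3%) had a peak, namely Cd9 with 4 and Cd81 with 1. Over all protein-coding genes, 40.8% had a peak, 9.73% had 3 or more and 13.8% had one that overlapped the gene body. Among those of 33 kb or longer, 14.1% had 3 or more and 28.2% had one that overlapped the gene body. As the lists were chosen with these peaks known, nothing is read from their counts. Median density was 3.19 peaks per 100 kb in the 6 hemidesmosome genes, 2.57 in the anchoring partners, 2.05 in the other plakins, 0.593 in the other integrins and 0 in the other tetraspanins. None of these differences was tested, and the lists overlap: Itga3 and Itgb1 are among both the anchoring partners and the other integrins.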

How the data were processed

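The authors deposited 1 list of p63 peaks with 3 columns (chromosome, start and end) and no score or count. Per the labels, it was made by IDR, which keeps peaks ranked alike in replicates, from the MK1 and MK2 p63 libraries. Listed in the submitters' processing notes are the build mm10 and the tools Bowtie 1.1.1 and SAMtools 1.1. Not given in the sources used here are the peak caller and its thresholds. The deposited starts were read as counting from 0, as is usual in such files, and were raised by 1.

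Genes came from RefSeq (GRCm38.p6). Outside chromosome Y, 340 rows that ended below 3 Mb were dropped, because their positions belong to other scaffolds, leaving 21775 protein-coding genes. Distances to gene ends are from the peak's nearest edge, and nearest genes and distances to starts use its midpoint.

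Counts were made with Python 3.11.15 and pandas 2.3.3, and the 95% intervals with SciPy 1.17.1 (Wilson for shares). The counting was checked against a direct search on 400 genes with placed peaks. The members, lists and rules were chosen with earlier results of these data known, and the p53-family decamer, the CATG core, the minimum of 3 peaks and the length of 33 kb after these peaks were seen. Named were all 6 genes, the nearest genes of their peaks, the genes with equal counts nearest in length to the 2 genes with most peaks, and, per list, the 4 with most peaks (ties alphabetical) where so many had any. Lama5, Lamb3, Col7a1 and Evpl were named after their values were seen. A gene of the planned lists is not reported here.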

Additional observations from a re-analysis of the deposited data

How the results depend on the processing

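All 6 hemidesmosome genes had a peak under each of the 8 alternatives tried for that count. Among values that moved by over 1.5 times or outside their interval, the 37 peaks became 22 within 10 kb, 19 in gene bodies and 24 when only peaks as wide as the list median were kept, a filter that stands in for a stricter threshold because the list has no score. Within 10 kb the counts were 5 at Col17a1, 2 at Itgb4, 3 at Itga6 and 1 at Cd151, and in gene bodies 3, 1, 3 and 1. Within 100 kb, Plec and Cd151 had 6 each. Counting a peak only for its nearest gene gave 2 at Itgb4 and 1 at Cd151. Wide peaks alone gave 5 at Dst, 3 at Itgb4 and 3 at Itga6, and a median width of 420.5 bp. The share of protein-coding genes with a peak was 40.8% (Wilson interval 40.1 to 41.4), and 21.4% within 10 kb, 29.8% within 25 kb, 55.3% within 100 kb, 13.8% in gene bodies, 20.3% by nearest gene and 26.2% with wide peaks, or 33.3% for all annotated genes. Other tetraspanins with a peak numbered 1 within 10 kb, within 25 kb, in gene bodies and by nearest gene. Other integrin genes with a peak numbered 6 in gene bodies and 8 by nearest gene. The remaining 81 of 113 comparisons with an alternative did not move that far, the 9 peaks of Dst under each change of distance among them. Each moved value was counted under a changed rule: another distance, the nearest gene only, wide peaks only or all annotated genes. No paired analysis was possible because both lines enter 1 list, and for the same reason neither line could be left out. Unknown depth limits every count, since weak sites may be missing.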

Other observations

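Over the whole genome, 353 of 32851 listed start windows overlapped a p63 peak. The p53-family consensus decamer was in 18.4% of those 353 windows and in 8.25% of the other 32498. The pair of CATG cores 6 bases apart was in 2.55% of windows with a peak and in 0.692% of those without. CAAG followed after 6 bases by CTTG was in 4.82% and 0.517%. The loose pair of CNNG cores 6 bases apart was in 88.4% of windows with a peak and in 70.0% of the others. A lone CATG was in 57.8% of windows with a peak and in 61.1% of the others. The windows were not compared for base composition, and these shares were not tested.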
